A study of Arabidopsis with 36 samples.

Results

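Transcript levels of 10 Arabidopsis genes of the HSP70, HSP90 and HSP100 chaperone families were followed in roots and shoots held at 28 °C or 21 °C. The genes were taken by identifier out of the 24532 genes in the RPKM table and all 10 exceeded the filter on low values in both organs. They are HSP101 (AT1G74310) and CLPB3 (AT5G15450) of the HSP100 family, HSP90.2 (AT5G56030), HSP90.3 (AT5G56010), HSP90.5 (AT2G04030) and HSP90.7 (AT4G24190) of the HSP90 family, and HSC70-1 (AT5G02500), HSC70-3 (AT3G09440), HSP70-4 (AT3G12580) and cpHSC70-1 (AT4G24280) of the HSP70 family. Seedlings of the mutants hy5-215 and chl1-5 and of the wild type Col-0 germinated for 4 days at 21 °C and then spent 5 more days at 28 °C or 21 °C, and RNA-seq was made from their roots and from their shoots. hy5-215 carries a point mutation in HY5, a bZIP transcription factor of light signaling that also takes part in temperature responses, and chl1-5 carries a deletion at NRT1.1, the nitrate transporter and sensor. Each of the 12 groups of genotype, organ and temperature had 3 libraries (36 in all), and a root replicate was a pool of about 50 roots. The number of seedlings behind a shoot sample is not given in the sources used here.

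Chaperones bind unfolded or aggregated proteins and use ATP to refold them, to pull them apart or to hold them for a later step. HSP70 proteins bind short exposed stretches of a client and work with J-domain proteins and nucleotide exchange factors, and HSP90 proteins take over near-native clients such as receptors and kinases with the help of co-chaperones such as HOP and p23. HSP100 proteins of the ClpB type are ring-shaped disaggregases that thread proteins out of aggregates. In plants each family has members in the cytosol and in organelles. Heat shock factors switch on the heat-inducible members, whereas the cognate (HSC) members are made at all temperatures, and HSP101 is required for acquired thermotolerance in Arabidopsis.

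Libraries held 51.8 to 89.3 M reads (median 72.4 M), and each library had between 462 and 252173 reads on any 1 of the 10 genes. RPKM here is per kb of the whole gene from start to end, introns included, so levels of intron-rich genes are understated relative to those of intron-poor genes. NRT1.1 had 0 to 4 reads in each chl1-5 root library, but 3715 to 6485 reads in each library labelled chl1-5 shoot, which goes against the label (these libraries are called shoots labelled chl1-5 below). AT1G12090, a gene close to NRT1.1 that was chosen after its values were seen, had at most 4 reads in 11 of the 12 chl1-5 libraries of both organs and 113 in root replicate 1 at 28 °C, and 8734 reads or more in every other library. HY5 transcript does not test hy5-215, a point mutant. At 28 °C and 21 °C it averaged 6.78 and 7.69 RPKM in hy5-215 roots, against 42.6 and 25.2 RPKM in Col-0 roots. In shoots the averages were 5.17 and 5.68 RPKM in hy5-215, against 8.04 and 4.81 RPKM in Col-0. AT1G43815, picked from these data, had 1492 to 3216 reads in each hy5-215 library and at most 6 in any other library. The summed level of 7 root marker genes was 166 to 249 RPKM in roots and 7.80 to 20.5 RPKM in shoots. In roots of each genotype it was lower at 28 °C than at 21 °C. The ranges were 173 to 182.5 and 223 to 239 RPKM in Col-0, 174 to 186 and 231 to 248 RPKM in chl1-5, and 166 to 167 and 230 to 249 RPKM in hy5-215. CASP1 made up most of the root sums. In Col-0 roots it averaged 103 RPKM at 28 °C and 147 RPKM at 21 °C, whereas SHR averaged 18.6 and 15.5 RPKM. The root markers in shoots were lower at 28 °C (7.80 to 10.4 RPKM) than at 21 °C (12.8 to 20.5 RPKM). The summed level of 8 shoot marker genes in shoots was 22666 to 26457 RPKM at 28 °C and 31679 to 34394 RPKM at 21 °C. In roots it moved with temperature and genotype, with 316 to 442 RPKM at 28 °C and 55.2 to 79.2 RPKM at 21 °C in Col-0, 233 to 311 and 39.6 to 49.8 RPKM in chl1-5, and 8.75 to 23.3 and 6.49 to 13.2 RPKM in hy5-215. RBCS1A, LHCB1.3 and PSAN made up most of the shoot marker sums. In Col-0 roots RBCS1A averaged 221 RPKM at 28 °C and 38.9 RPKM at 21 °C, and LHCB1.3 146 and 22.6 RPKM. Of the rest, SPCH averaged 0.0085 and 0.053 RPKM there, YAB3 0.033 and 0.0073 RPKM, and GL1 had no read. In bulk organs, a change in the number of cells of a type and a change in RNA per cell cannot be told apart.

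In Col-0 the 10 genes did not move together at 28 °C. HSP70-4 and HSP101, the heat-inducible cytosolic members, rose in roots and in shoots, whereas HSC70-3, HSP90.2 and HSP90.3 fell in both organs. In roots 5 genes rose, 3 fell and 2 (CLPB3 and HSP90.7) did not pass the test (limma on log2(RPKM + 1), adjusted p under 0.05), against a background of 37% of all 17742 genes tested that rose and 29.2% that fell. In shoots 4 genes rose, 5 fell and cpHSC70-1 did not pass, and 46.2% of 16817 genes rose and 30.7% fell. The 10 genes had a median log2 fold change of 0.078 in roots and -0.023 in shoots, where the medians over all genes tested were 0.031 and 0.075. HSP70-4 was the only one of the 10 with a log2 fold change above 1, which 2.42% of all genes reached as a rise in roots and 3.31% in shoots. The plot of fold changes shows HSP70-4 far to the right of the other 9 genes in all 6 comparisons.

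**Figure D1:**
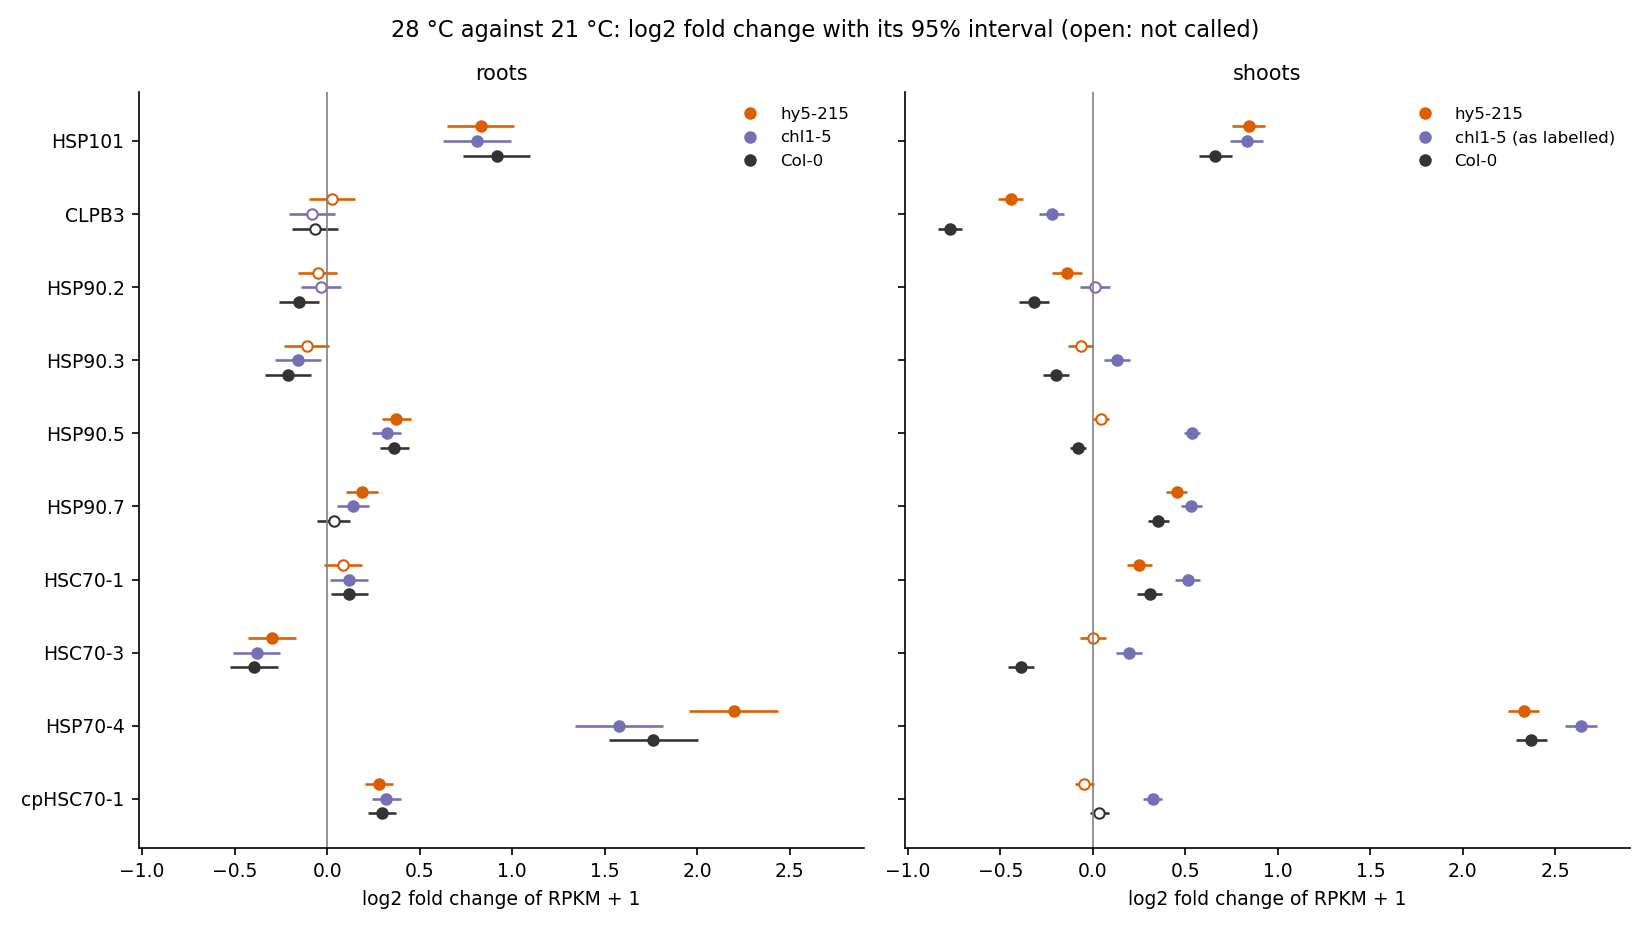
Log2 fold change of RPKM + 1 (x axis) of each of the 10 genes (y axis) at 28 °C against 21 °C, in roots (left) and shoots (right) of hy5-215, chl1-5 and Col-0. Points are limma estimates from 3 libraries per group, lines are 95% intervals, and open points have an adjusted p of 0.05 or more. HSP70-4 lies between 1.58 and 2.64 in all 6 comparisons, and the 95% interval of CLPB3 lies below 0 in all 3 shoot comparisons and includes 0 in all 3 root comparisons.

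HSP70-4, a cytosolic HSP70 that is strongly induced by heat, changed most. Col-0 roots had 102, 105 and 118 RPKM at 28 °C, against 27.4, 31.5 and 35.1 RPKM at 21 °C. Col-0 shoots had 55.0, 58.2 and 61.8 RPKM at 28 °C, against 10.3, 10.5 and 10.6 RPKM at 21 °C. Every 28 °C library stood above every 21 °C library of its organ. The mean was 3.46 times as high at 28 °C in Col-0 roots (log2 fold change 1.76 ± 0.11, SE; adjusted p = 3.31e-09) and 5.58 times as high in Col-0 shoots (2.37 ± 0.040, adjusted p = 1.6e-18). By size of rise it ranked 83 of 17742 genes in Col-0 roots and 58 of 16817 in Col-0 shoots. The gene rose in both mutants too. hy5-215 roots had 81.3, 81.9 and 101 RPKM at 28 °C, against 16.3, 16.8 and 22.3 RPKM at 21 °C, and chl1-5 roots had 88.6, 92.6 and 99.1 RPKM, against 28.4, 31.2 and 32.4 RPKM. In shoots, the 3 hy5-215 libraries at 28 °C had 57.8, 58.3 and 58.6 RPKM, against 10.5, 10.8 and 11.1 RPKM at 21 °C, and shoots labelled chl1-5 had 55.1, 55.7 and 58.2 RPKM, against 7.82, 8.04 and 8.77 RPKM. The spread was wider in hy5-215 roots, where 1 library at 28 °C stood well above the other two. Log2 fold changes in the mutants were 2.20 (hy5-215 roots), 1.58 (chl1-5 roots), 2.33 (hy5-215 shoots) and 2.64 (shoots labelled chl1-5), with adjusted p of 7.19e-09 or less in each.

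HSP101, the cytosolic ClpB disaggregase, was the least abundant of the 10 genes per kb in shoots and rose in all 6 comparisons. Col-0 roots had 9.32, 9.53 and 11.1 RPKM at 28 °C, against 4.63, 4.84 and 4.94 RPKM at 21 °C, and Col-0 shoots had 3.82, 3.88 and 4.37 RPKM, against 2.04, 2.21 and 2.26 RPKM. The ranges at 28 °C and 21 °C were apart in both organs. The log2 fold change was 0.92 ± 0.086 in Col-0 roots (adjusted p = 1.83e-07) and 0.66 ± 0.042 in Col-0 shoots (adjusted p = 1.36e-10). Because 1 RPKM was added before taking logs, these values understate the change of so low a gene, and the ratio of mean RPKM was 2.08 in Col-0 roots and 1.85 in Col-0 shoots. With 0.1 RPKM added in place of 1, the log2 fold change was 1.04 in Col-0 roots, 1.06 in hy5-215 shoots and 1.09 in shoots labelled chl1-5, past the limit of 1 for a DEG. In the mutants the ratio was 1.97 in hy5-215 roots, 1.95 in chl1-5 roots, 2.14 in hy5-215 shoots and 2.19 in shoots labelled chl1-5.

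CLPB3, the ClpB disaggregase of plastids, fell in shoots and not detectably in roots. Col-0 shoots had 19.1, 19.3 and 20.1 RPKM at 28 °C, against 33.7, 33.8 and 34.4 RPKM at 21 °C, which is -0.77 ± 0.032 on the log2 scale (adjusted p = 2.87e-13). The fall was the largest among the 10 genes in Col-0 shoots. In hy5-215 shoots the level was 21.35 ± 0.88 RPKM at 28 °C and 29.4 ± 0.386 RPKM at 21 °C (SD, n = 3 each), and in shoots labelled chl1-5 it was 23.3 ± 0.478 RPKM and 27.4 ± 0.935 RPKM. The log2 fold change was -0.44 in hy5-215 shoots and -0.22 in shoots labelled chl1-5, both with adjusted p of 4.92e-06 or less. In the same shoots the summed shoot markers had medians of 22984 RPKM at 28 °C and 34143 RPKM at 21 °C in hy5-215, 23368 and 32952 RPKM in shoots labelled chl1-5, and 26010.0 and 32043 RPKM in Col-0, and their part in the CLPB3 values was not tested. Root levels lay between 4.92 and 6.99 RPKM in all 18 root libraries, and the 95% interval of the Col-0 root log2 fold change was -0.19 to 0.058.

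HSP90.2 and HSP90.3 are near-identical cytosolic HSP90s that lie close together on chromosome 5, with HSP90.4 beside HSP90.3. How reads that fit several of these genes were assigned is not given in the sources used here, so the values of each gene are uncertain. In Col-0 shoots HSP90.2 had 52.5, 52.6 and 58.4 RPKM at 28 °C, against 66.7, 68.4 and 69.4 RPKM at 21 °C, and HSP90.3 had 47.9, 48.3 and 51.9 RPKM, against 55.0, 57.0 and 58.5 RPKM. Both fell, with log2 fold changes of -0.32 ± 0.039 (adjusted p = 8.76e-07) and -0.20 ± 0.033 (adjusted p = 2.83e-05). In Col-0 roots HSP90.2 had 173, 185 and 191 RPKM at 28 °C, against 191, 204 and 216 RPKM at 21 °C, and these ranges overlapped at 191 RPKM. HSP90.3 in Col-0 roots had 140.4, 155 and 159 RPKM, against 164, 178 and 184 RPKM, with ranges apart. The log2 fold changes in Col-0 roots were -0.15 for HSP90.2 (adjusted p = 0.0152) and -0.21 for HSP90.3 (adjusted p = 0.00448). The HSP90.2 call in Col-0 roots was lost without Col-0 root replicate 2 at 21 °C (-0.11, adjusted p = 0.0887) or without replicate 2 at 28 °C (-0.11, adjusted p = 0.0786). It was also lost in a fit on the compared groups only (adjusted p = 0.061). HSP90.3 fell in chl1-5 roots (-0.16, adjusted p = 0.0241), a call lost without chl1-5 root replicate 1 at 21 °C (-0.15, adjusted p = 0.0607) or replicate 3 at 28 °C (-0.12, adjusted p = 0.112), and rose in shoots labelled chl1-5 (0.13, adjusted p = 0.00149), a call lost with rescaling by the median of ratios (0.030, adjusted p = 0.545). HSP90.2 fell in hy5-215 shoots (-0.14, adjusted p = 0.00352). In the other comparisons of temperature neither gene passed the test, with log2 fold changes from -0.11 to 0.012. HSP90.3 passed as lower with rescaling in hy5-215 roots (-0.17, adjusted p = 0.0232) and hy5-215 shoots (-0.15, adjusted p = 0.00462). The summed RPKM of HSP90.2, HSP90.3 and HSP90.4 passed as lower in Col-0 roots and Col-0 shoots. That sum changed by -0.095 in chl1-5 roots (adjusted p = 0.136), -0.085 in hy5-215 shoots (adjusted p = 0.035) and 0.084 in shoots labelled chl1-5 (adjusted p = 0.037).

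HSP90.5, the plastid HSP90, and cpHSC70-1, a plastid stromal HSP70, moved alike in roots. In Col-0 roots HSP90.5 had 46.7, 46.9 and 48.3 RPKM at 28 °C, against 35.3, 36.7 and 37.6 RPKM at 21 °C, and cpHSC70-1 had 62.6, 62.9 and 63.4 RPKM, against 48.7, 51.4 and 53.0 RPKM. No 28 °C library overlapped a 21 °C library for either gene. Their log2 fold changes were 0.36 ± 0.037 (adjusted p = 4e-07) and 0.30 ± 0.036 (adjusted p = 2.65e-06). In hy5-215 roots the log2 fold changes were 0.37 for HSP90.5 and 0.28 for cpHSC70-1, and in chl1-5 roots they were 0.32 and 0.32, all with adjusted p of 7.21e-06 or less. The summed shoot markers, mostly RBCS1A, LHCB1.3 and PSAN, also stood higher at 28 °C in roots. Medians were 402 RPKM at 28 °C and 74.2 RPKM at 21 °C in Col-0, 302 and 49.6 RPKM in chl1-5, and 21.23 and 10.13 RPKM in hy5-215. The part of these markers in the chaperone values was not tested. In shoots the response of HSP90.5 differed between genotypes (tests of the difference follow). It had 121, 121 and 122 RPKM in Col-0 shoots at 28 °C, against 128, 128 and 130.0 RPKM at 21 °C, a small fall (-0.081 ± 0.021, adjusted p = 0.00198). In shoots labelled chl1-5 it had 134, 136 and 137 RPKM at 28 °C, against 92.0, 93.1 and 93.9 RPKM at 21 °C, a rise (0.54 ± 0.021, adjusted p = 1.46e-13). In hy5-215 shoots it had 104 ± 1.31 RPKM and 101 ± 2.58 RPKM (SD, n = 3 each), which missed the threshold (adjusted p = 0.0661). That call was gained without hy5-215 shoot replicate 1 at 21 °C (0.063, adjusted p = 0.0102) or replicate 3 at 28 °C (0.054, adjusted p = 0.0481). cpHSC70-1 rose in shoots labelled chl1-5, with 144, 145 and 149 RPKM at 28 °C against 115, 116 and 118 RPKM at 21 °C (0.33 ± 0.024, adjusted p = 1.18e-09). Its 95% interval was -0.017 to 0.085 in Col-0 shoots and -0.098 to 0.004 in hy5-215 shoots, where it did not pass, although with rescaling by the median of ratios it passed as lower in hy5-215 shoots (-0.14, adjusted p = 0.00188).

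HSP90.7 (also called SHEPHERD), the HSP90 of the endoplasmic reticulum (ER), rose in shoots of every genotype. Col-0 shoots had 79.9, 81.8 and 85.6 RPKM at 28 °C, against 63.2, 64.1 and 65.3 RPKM at 21 °C (0.35 ± 0.026, adjusted p = 1.19e-09). The log2 fold change was 0.45 in hy5-215 shoots (adjusted p = 3.58e-11) and 0.53 in shoots labelled chl1-5 (adjusted p = 4.5e-12). In roots the changes were smaller. hy5-215 roots had 157, 159 and 159.8 RPKM at 28 °C, against 138, 139 and 140.2 RPKM at 21 °C (0.19 ± 0.041, adjusted p = 0.00102), and chl1-5 roots had 139, 140.0 and 143 RPKM, against 121, 130.5 and 131 RPKM (0.14 ± 0.041, adjusted p = 0.00679). Col-0 roots had 159, 159.7 and 163 RPKM, against 149, 154 and 168 RPKM, with overlapping ranges and a 95% interval of -0.052 to 0.12.

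HSC70-1, the main constitutive cytosolic HSP70, was the most abundant of the 10 genes per kb in every library. In Col-0 shoots it had 513, 518 and 554 RPKM at 28 °C, against 417, 425 and 437 RPKM at 21 °C (0.31 ± 0.032, adjusted p = 9.84e-08). It also rose in hy5-215 shoots (0.25, adjusted p = 1.21e-06) and in shoots labelled chl1-5 (0.51, adjusted p = 9.4e-11). In Col-0 roots it had 1093, 1170.5 and 1201 RPKM at 28 °C, against 1032, 1048 and 1105 RPKM at 21 °C, with overlapping ranges (0.12 ± 0.048, adjusted p = 0.0358). That call was lost without Col-0 root replicate 1 (0.11, adjusted p = 0.0938) or replicate 3 (0.10, adjusted p = 0.12) at 21 °C, without replicate 1 (0.11, adjusted p = 0.092) or replicate 2 (0.092, adjusted p = 0.135) at 28 °C, with rescaling by the median of ratios (0.084, adjusted p = 0.16), with no filter (adjusted p = 0.098) and in a fit on the compared groups only (adjusted p = 0.117). The chl1-5 root value was 0.12 ± 0.048 (adjusted p = 0.0392) and was lost without replicate 1 or 3 at 21 °C or replicate 1 or 2 at 28 °C (adjusted p of 0.196, 0.0655, 0.109 and 0.0944, in that order), with rescaling (0.075, adjusted p = 0.209), with no filter (adjusted p = 0.103) and in a fit on the compared groups only (adjusted p = 0.127).

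HSC70-3, a close paralog of HSC70-1 in the cytosol, went the other way in Col-0. Col-0 roots had 72.4, 72.7 and 78.4 RPKM at 28 °C, against 91.6, 99.3 and 104 RPKM at 21 °C, and Col-0 shoots had 27.7, 27.8 and 29.99 RPKM, against 37.3, 37.6 and 37.8 RPKM. The ranges were apart in both organs, and the log2 fold changes were -0.40 ± 0.060 (adjusted p = 3.04e-05) in roots and -0.39 ± 0.033 (adjusted p = 8.44e-09) in shoots. It fell in hy5-215 roots (-0.30) and chl1-5 roots (-0.38) as well, both with adjusted p of 0.000535 or less. In hy5-215 shoots it had 35.1, 35.4 and 37.0 RPKM at 28 °C, against 35.1, 35.2 and 37.2 RPKM at 21 °C (95% interval -0.070 to 0.070). In shoots labelled chl1-5 it rose, with 28.5, 28.9 and 29.8 RPKM at 28 °C, against 24.7, 25.3 and 25.99 RPKM at 21 °C (0.19 ± 0.033, adjusted p = 3.97e-05), a call lost with rescaling by the median of ratios (0.095, adjusted p = 0.0767). Reads shared with HSC70-1 and HSC70-2 could be split between the genes, and the summed RPKM of the 3 genes, of which HSC70-1 makes up most, changed by 0.10 in Col-0 roots and 0.26 in Col-0 shoots on the log2 scale. HSC70-2 itself rose in Col-0 roots, with 23.7 ± 1.62 RPKM at 28 °C and 9.18 ± 0.962 RPKM at 21 °C (SD, n = 3 each; 1.28, adjusted p = 4.68e-09).

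**Figure D2:**
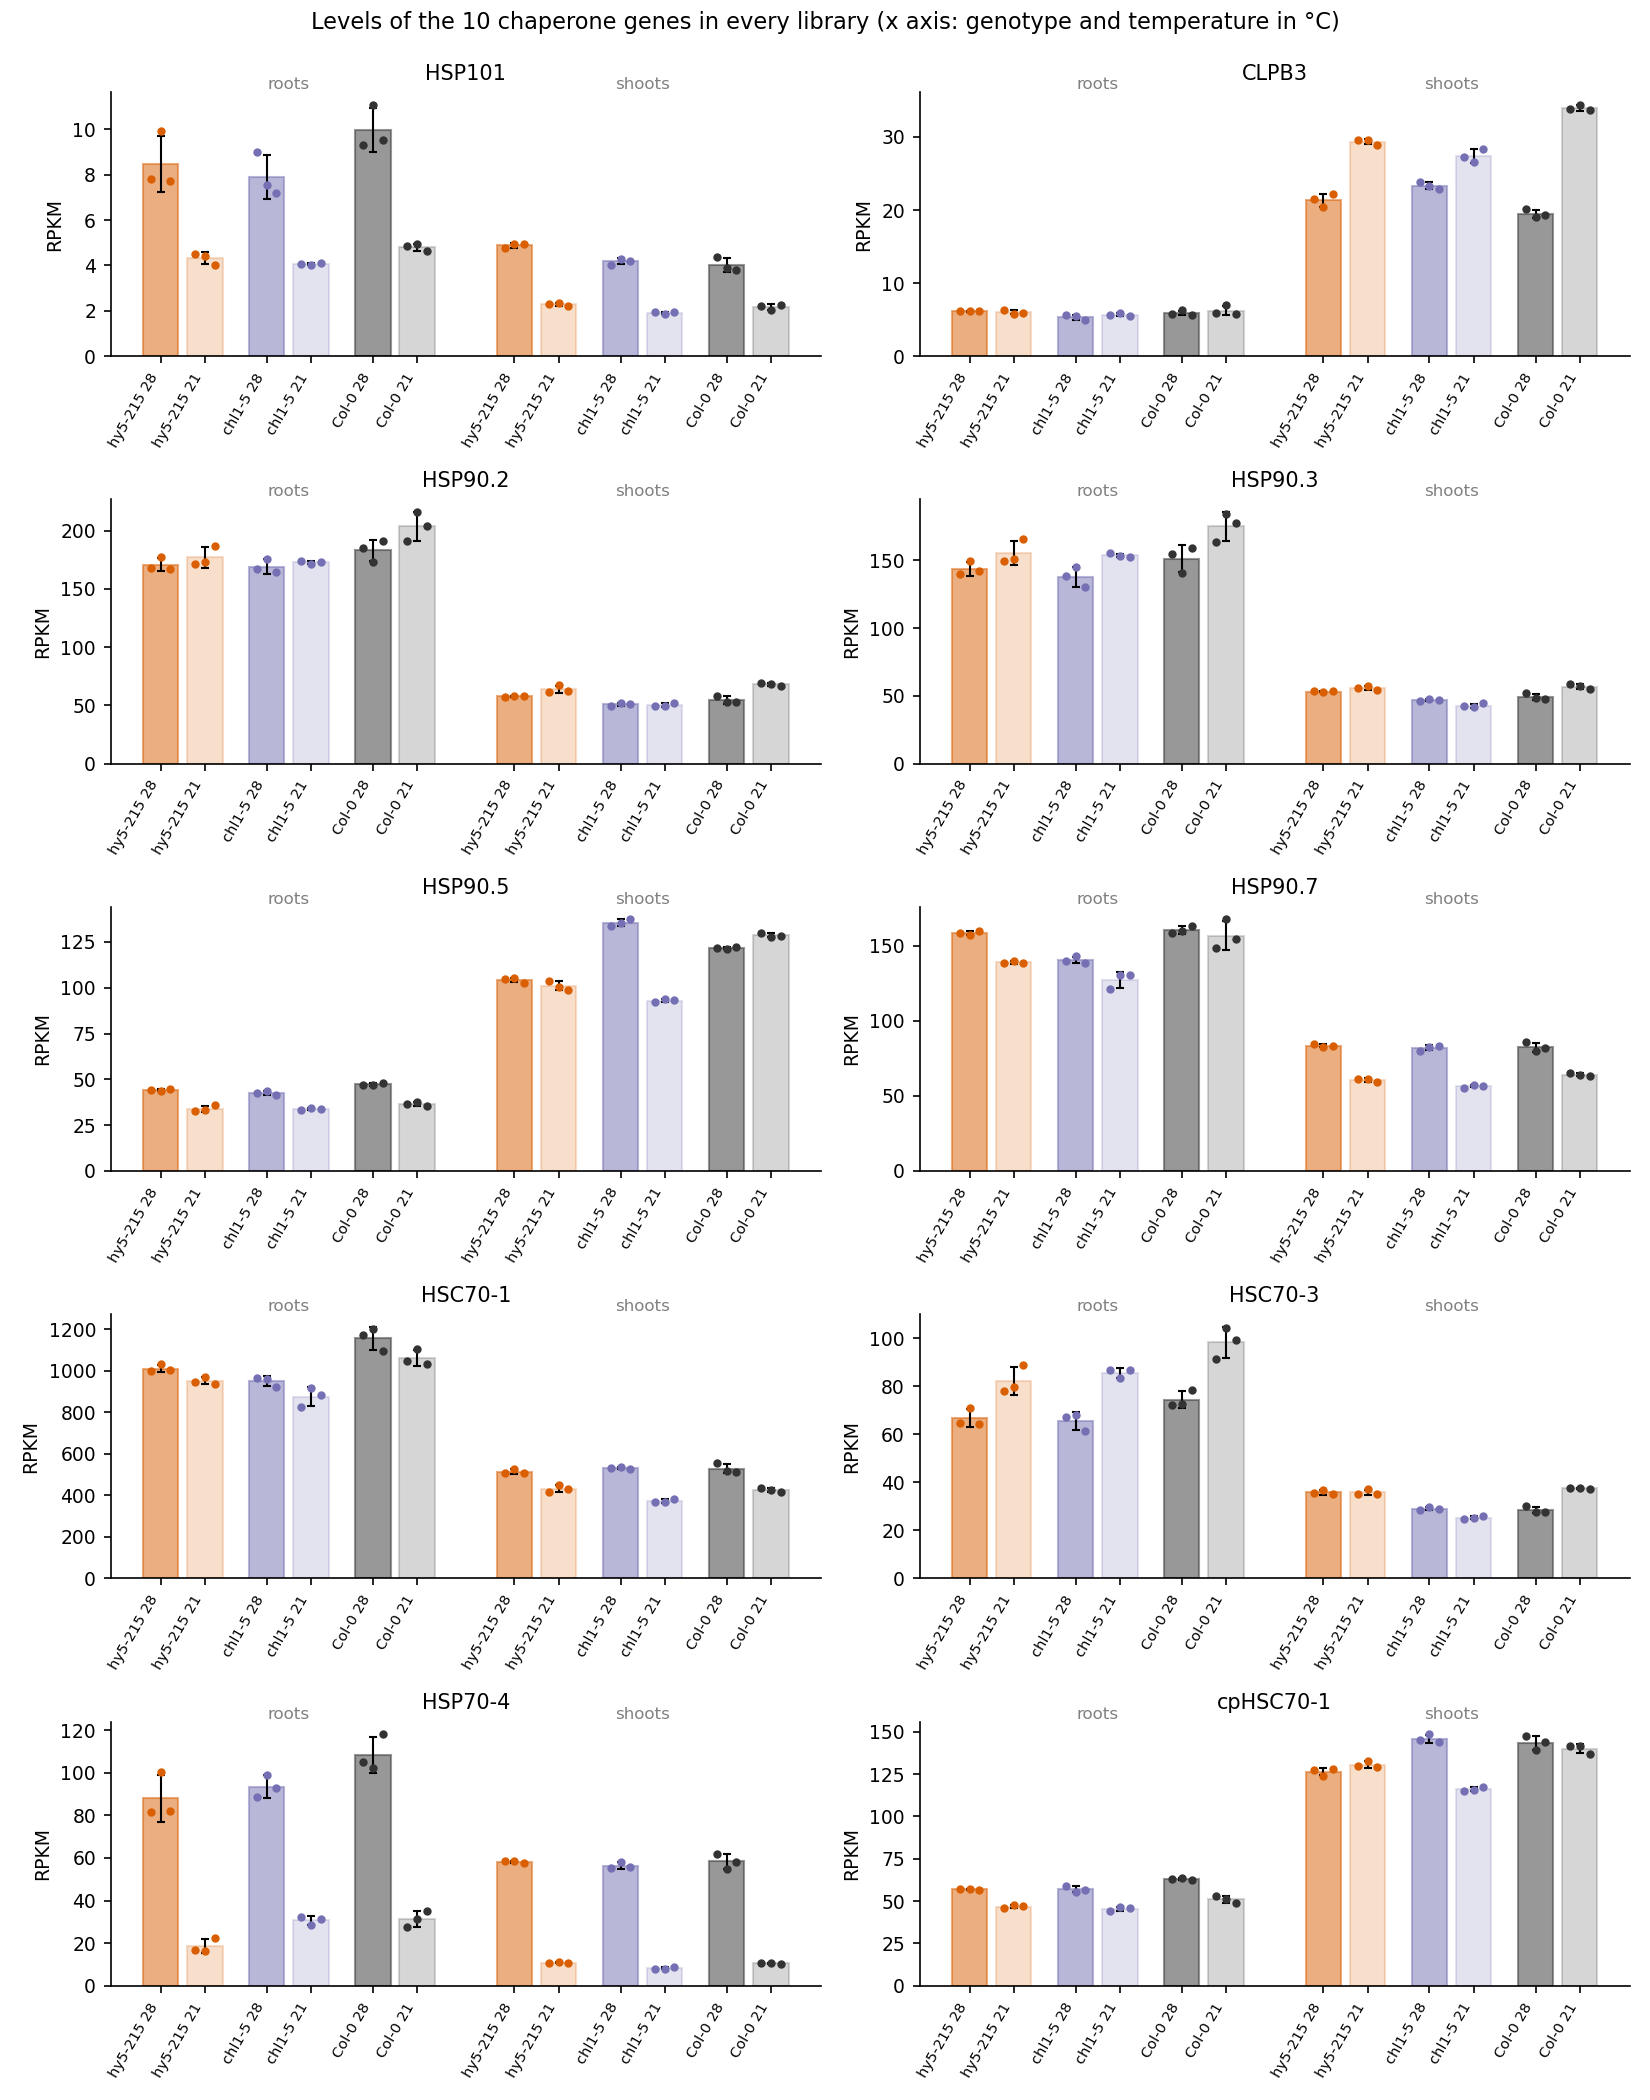
RPKM (y axis, from 0) of each of the 10 genes in the 12 groups (x axis: genotype and temperature in °C), roots on the left and shoots on the right of each panel. Points are the 3 libraries of a group, bars their mean and lines ± 1 SD, and the shoots named chl1-5 carry that name by their label. HSP70-4 and HSP101 are higher at 28 °C in every genotype and organ, CLPB3, HSP90.5 and cpHSC70-1 are higher in shoots, and the other 7 genes are higher in Col-0 roots than in Col-0 shoots at 21 °C.

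Over each mutant the same count was made. In hy5-215 roots 5 genes rose, 1 fell and 4 did not pass, where 36.5% of all genes rose and 24.5% fell, and 1.94% rose with a log2 fold change above 1. In chl1-5 roots 6 rose, 2 fell and 2 did not pass, where 38.3% rose, 29.1% fell and 2.66% rose past 1. In hy5-215 shoots 4 rose, 2 fell and 4 did not pass (46.8% rose, 30.4% fell and 4.23% rose past 1 among all genes). In shoots labelled chl1-5, 8 rose, CLPB3 fell and HSP90.2 did not pass (49.9% rose, 28.4% fell and 2.43% rose past 1 among all genes). HSP70-4 alone passed the limit of 1 in each of these 4 comparisons. The median log2 fold change over the 10 genes reached 0.42 in shoots labelled chl1-5, 0.022 in hy5-215 shoots and -0.023 in Col-0 shoots, and the medians over all genes tested were 0.10, 0.077 and 0.075. All differences between genotypes share the Col-0 libraries.

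Whether a mutant responded differently was tested as the difference between its log2 fold change and that of Col-0. In roots no such difference passed the limma test for any of the 10 genes. The median difference over the 10 genes was 0.097 for hy5-215 and 0.006 for chl1-5, and 0.013 and 0.008 over all genes. For hy5-215 the count was 0, with 2 genes at an unadjusted p under 0.05 and 0 by voom, and 20.4% of all genes passed. For chl1-5 the count was 0, with 0 at an unadjusted p under 0.05 and 0 by voom, and 2.35% of all genes passed. The 2 genes were HSP70-4, with a difference of 0.43 ± 0.16 on the log2 scale (95% interval 0.095 to 0.77, adjusted p = 0.0667), and HSP90.7 (0.15 ± 0.058, adjusted p = 0.0778). Without Col-0 root replicate 1 at 21 °C both passed (0.52, adjusted p = 0.0342, and 0.19, adjusted p = 0.0326). HSP70-4 also passed without Col-0 root replicate 3 at 28 °C (0.50, adjusted p = 0.0455) or hy5-215 root replicate 3 at 21 °C (0.57, adjusted p = 0.00978). In chl1-5 roots the HSP70-4 difference was -0.19 (95% interval -0.52 to 0.15).

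In shoots the responses differed between genotypes for most of the 10 genes, and each difference that passed was a more positive response in the mutant. In hy5-215 shoots 7 genes responded more positively than in Col-0 shoots, against 27.4% of all genes, and the median difference was 0.13 over the 10 genes and 0.004 over all genes. HSC70-3 and CLPB3 differed most, by 0.39 ± 0.047 (adjusted p = 3.29e-06) and 0.33 ± 0.045 (adjusted p = 1.17e-05), where the log2 fold changes were 0.000 and -0.44 in hy5-215 shoots and -0.39 and -0.77 in Col-0 shoots. The summed RPKM of HSC70-1, HSC70-2 and HSC70-3 differed by -0.033 (adjusted p = 0.555), and the split of shared reads between the 3 genes is uncertain. HSC70-1 makes up most of that sum, so it cannot show how HSC70-3 itself moved. HSP90.2 and HSP90.5 differed by 0.18 (adjusted p = 0.0125) and 0.12 (adjusted p = 0.00211). HSP101 (0.18, adjusted p = 0.0193) lost the call without Col-0 shoot replicate 3 at 21 °C or replicate 2 or 3 at 28 °C (adjusted p of 0.0504 to 0.0564). HSP90.3 (0.13, adjusted p = 0.024) lost it without Col-0 shoot replicate 1 at 21 °C, Col-0 shoot replicate 2 or 3 at 28 °C, or hy5-215 shoot replicate 3 at 21 °C (0.0591 to 0.0689). HSP90.7 (0.098, adjusted p = 0.0378) lost it without Col-0 shoot replicate 1 or 2 at 21 °C, Col-0 shoot replicate 2 or 3 at 28 °C, hy5-215 shoot replicate 3 at 21 °C, or hy5-215 shoot replicate 1 or 3 at 28 °C (0.0571 to 0.106). Without Col-0 shoot replicate 3 at 28 °C, 4 of the 7 passed, and with rescaling by the median of ratios 4 passed (HSP101, CLPB3, HSP90.5 and HSC70-3). HSC70-1, HSP70-4 and cpHSC70-1 did not pass (95% intervals -0.15 to 0.038, -0.16 to 0.079 and -0.15 to -0.009). cpHSC70-1 passed, with a lower value in hy5-215, without Col-0 shoot replicate 2 at 28 °C (-0.10, adjusted p = 0.0182) and by voom (-0.081, adjusted p = 0.0481).

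In shoots labelled chl1-5 all 10 genes responded more positively than in Col-0 shoots, against 30.5% of all genes, with a median difference of 0.31 over the 10 genes and 0.010 over all genes. The differences were largest for HSP90.5 (0.62 ± 0.029, adjusted p = 6.85e-11), HSC70-3 (0.58 ± 0.047, adjusted p = 2.89e-08) and CLPB3 (0.55 ± 0.045, adjusted p = 3.12e-08). HSP90.3, HSP90.2 and cpHSC70-1 differed by 0.33, 0.33 and 0.29. HSP70-4, HSC70-1 and HSP90.7 differed by 0.27, 0.21 and 0.18, all with adjusted p of 0.000909 or less. HSP101 differed by 0.17 (adjusted p = 0.023), and its adjusted p was 0.0557 to 0.0658 without Col-0 shoot replicate 3 at 21 °C, Col-0 shoot replicate 2 or 3 at 28 °C, or replicate 2 of the shoots labelled chl1-5 at 21 °C or 28 °C, and 0.062 with rescaling. NRT1.1 in these libraries averaged 18.9 RPKM at 28 °C (Col-0 shoots 7.30 RPKM) and 13.4 RPKM at 21 °C (Col-0 shoots 17.7 RPKM), so that what the label chl1-5 stands for in shoots is uncertain.

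The genotype levels at each temperature show where these differences lay. In shoots labelled chl1-5 at 21 °C all 10 genes were lower than in Col-0, where 27.9% of all genes were lower, by -0.12 (HSP101) to -0.55 (HSC70-3) on the log2 scale. The median over the 10 genes was -0.31 at 21 °C and 0.017 at 28 °C, and -0.015 and -0.004 over all genes. HSC70-3 had 24.7, 25.3 and 25.99 RPKM, against 37.3, 37.6 and 37.8 RPKM in Col-0 shoots, and HSP90.5 had 92.0, 93.1 and 93.9 RPKM, against 128, 128 and 130.0 RPKM. No library of either group overlapped the other for these 2 genes. HSP101 lost the call at 21 °C without Col-0 shoot replicate 1 (adjusted p = 0.0693) or replicate 3 (adjusted p = 0.0937) or replicate 2 of the shoots labelled chl1-5 (adjusted p = 0.0848). Its call was also lost with rescaling by the median of ratios (-0.10, adjusted p = 0.0949). At 28 °C CLPB3 (0.25) and HSP90.5 (0.15) were higher in shoots labelled chl1-5 and HSP90.2 (-0.099, adjusted p = 0.0443) was lower, where 23.8% of all genes were higher and 23.9% lower. The HSP90.2 call was lost without Col-0 shoot replicate 1 at 28 °C (-0.050, adjusted p = 0.254) or replicate 1 (adjusted p = 0.143) or 3 (adjusted p = 0.0869) of the shoots labelled chl1-5, and HSP90.3 passed as lower without Col-0 shoot replicate 3 (-0.093, adjusted p = 0.0484).

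In hy5-215 shoots at 21 °C 5 genes were lower than in Col-0 shoots, where 34.6% of all genes were lower. HSP90.5 was lowest relative to Col-0, with 98.9, 101 and 104 RPKM in hy5-215 against 128, 128 and 130.0 RPKM in Col-0 (-0.35 ± 0.021, adjusted p = 4.79e-10). CLPB3 (-0.20), cpHSC70-1 (-0.10), HSP90.2 (-0.095) and HSP90.7 (-0.079) followed, and the count was 3 without Col-0 shoot replicate 1 or hy5-215 shoot replicate 3 and 2 (HSP90.5 and CLPB3) with rescaling by the median of ratios. HSP90.2 lost the call without Col-0 shoot replicate 1 or 2 or hy5-215 shoot replicate 1 or 3 (adjusted p of 0.0938 to 0.163), HSP90.7 without Col-0 shoot replicate 1 (0.0688) or hy5-215 shoot replicate 3 (0.08), and HSC70-3 passed as lower without hy5-215 shoot replicate 2 (-0.094, adjusted p = 0.0316). The median over the 10 genes was -0.073 at 21 °C and 0.051 at 28 °C, and -0.027 and -0.025 over all genes. At 28 °C HSC70-3 (0.32 ± 0.033, adjusted p = 2.81e-07), HSP101 (0.23, adjusted p = 0.000169), CLPB3 (0.12, adjusted p = 0.00279) and HSP90.3 (0.11, adjusted p = 0.0111) were higher in hy5-215 shoots, where 25.8% of all genes were higher. HSP90.5 (-0.22) and cpHSC70-1 (-0.18) were lower, where 30.4% were lower. The HSP90.3 call was lost without Col-0 shoot replicate 3 at 28 °C (0.085, adjusted p = 0.0621), and HSP90.2 passed as higher without Col-0 shoot replicate 1 at 28 °C (0.13, adjusted p = 0.0037). The sum of HSC70-1 to HSC70-3, which is mostly HSC70-1 and cannot show the level of HSC70-3 itself, differed by -0.013 at 28 °C (adjusted p = 0.74).

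In roots every called difference between a mutant and Col-0 was a lower level in the mutant. At 21 °C 8 genes were lower in hy5-215 roots (18.9% of all genes were lower) and 7 in chl1-5 roots (11.7%). At 28 °C 6 were lower in hy5-215 roots (22.8%) and 5 in chl1-5 roots (2.75%). The median over the 10 genes was -0.16 (21 °C) and -0.12 (28 °C) in hy5-215 roots and -0.19 and -0.17 in chl1-5 roots, where the medians over all genes lay between 0.010 and 0.039. HSP70-4 at 21 °C stood out in hy5-215 roots, with 16.3, 16.8 and 22.3 RPKM against 27.4, 31.5 and 35.1 RPKM in Col-0 roots (-0.74 ± 0.11, adjusted p = 7.11e-05), and its libraries lay below all Col-0 libraries. In chl1-5 roots HSP70-4 had 28.4, 31.2 and 32.4 RPKM at 21 °C, within the Col-0 range (95% interval -0.27 to 0.21). HSP90.7 and HSC70-1 were lower in chl1-5 roots at both temperatures. HSC70-1 had 919.9, 961 and 966 RPKM in chl1-5 roots at 28 °C, against 1093, 1170.5 and 1201 RPKM in Col-0 roots (-0.28, adjusted p = 0.0036), and 826, 881 and 918 RPKM at 21 °C, against 1032, 1048 and 1105 RPKM (-0.28, adjusted p = 0.000714). In hy5-215 roots HSC70-1 had 997, 1002 and 1029.7 RPKM at 28 °C, below every Col-0 root library of that temperature (-0.19, adjusted p = 0.00301).

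Most other root differences were small and depended on single libraries. At 21 °C in hy5-215 roots, HSP90.2 (-0.20), HSP90.7 (-0.17), HSC70-3 (-0.26) and HSP70-4 passed whichever library was left out, and the count was 5 without Col-0 root replicate 2. At 28 °C HSC70-1 and cpHSC70-1 (-0.14) did so, and the count was 2 without hy5-215 root replicate 1 or 3 and 3 without Col-0 root replicate 3. HSP90.2 passed as lower at 28 °C without Col-0 root replicate 2 (-0.14, adjusted p = 0.0397). At 21 °C in chl1-5 roots, HSP90.2 (-0.23), HSP90.7 (-0.30), HSC70-1 and cpHSC70-1 (-0.17) did so, and the count was 4 without Col-0 root replicate 2 or chl1-5 root replicate 1. At 28 °C HSP90.7 (-0.19) and HSC70-1 did so, the count was 3 without Col-0 root replicate 1, Col-0 root replicate 2 or chl1-5 root replicate 2 and 2 without chl1-5 root replicate 3, and in a fit on the compared groups alone it was 0 (7 at an unadjusted p under 0.05, and 5 by voom on all root groups).

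**Figure D3:**
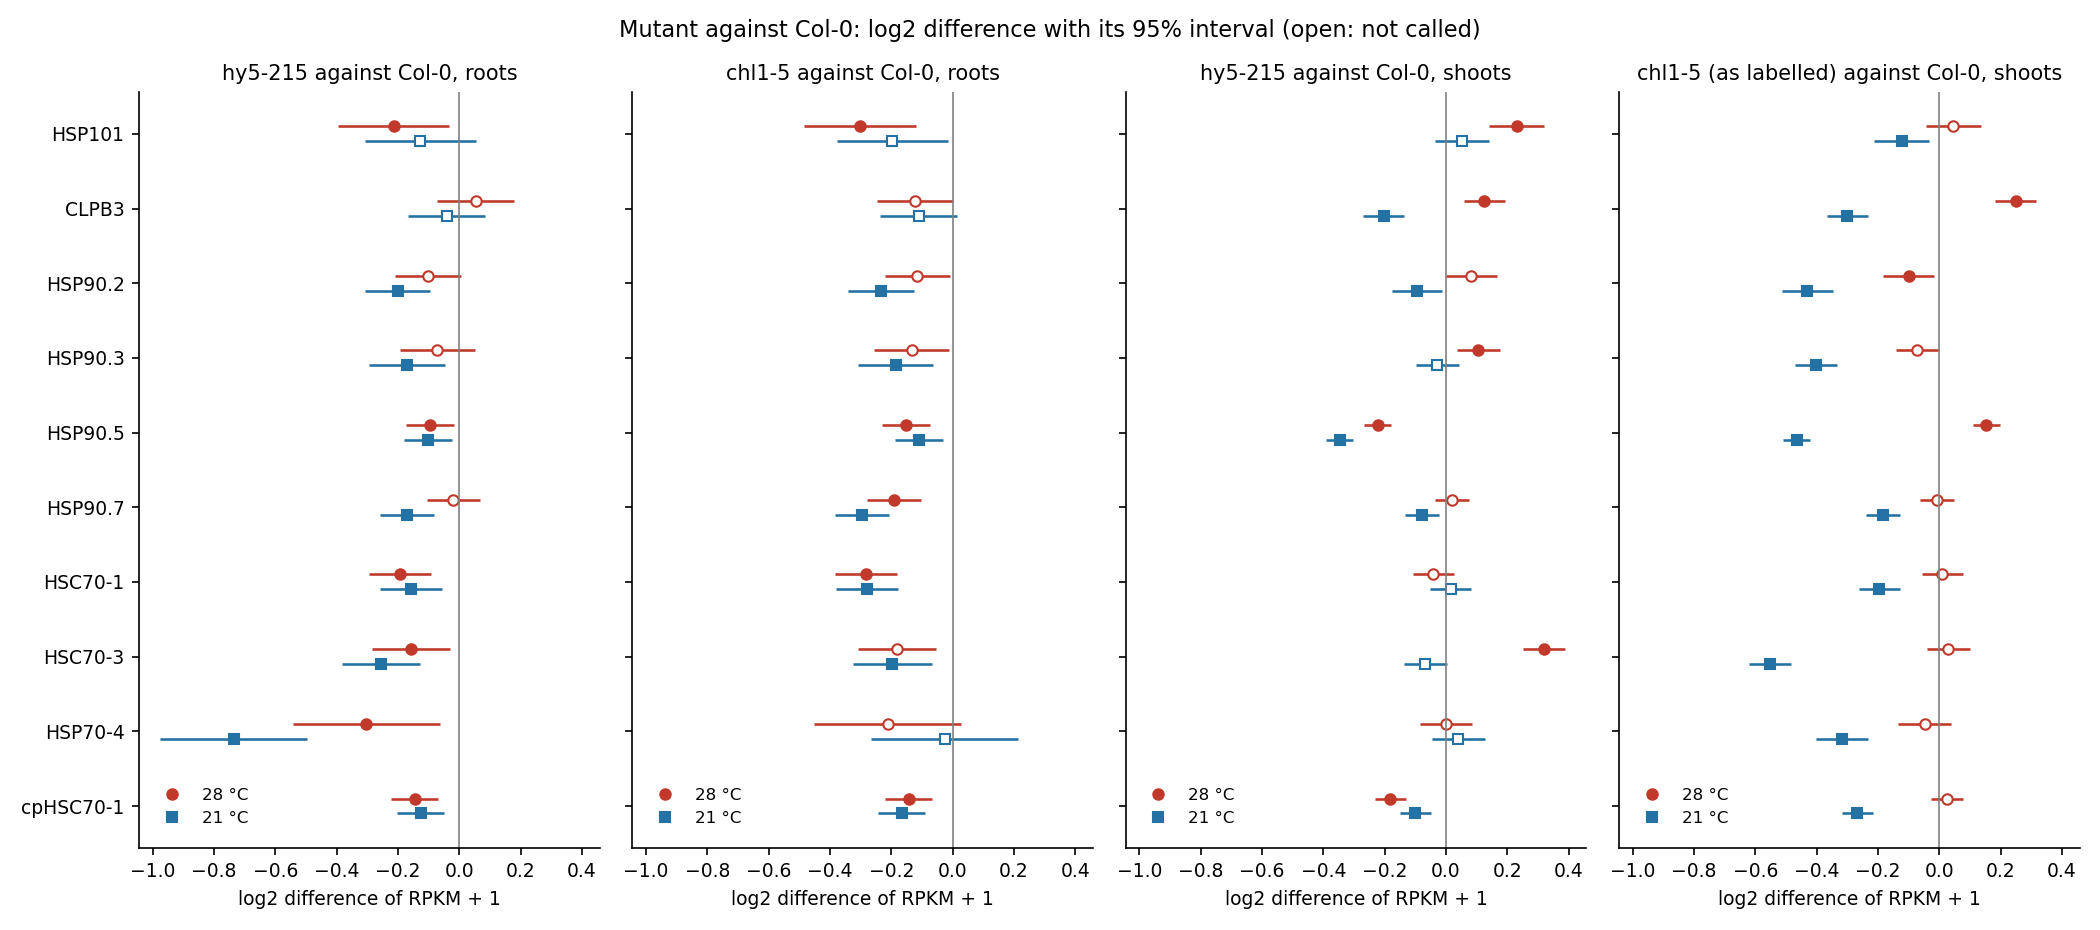
Log2 difference of RPKM + 1 (x axis) of each of the 10 genes (y axis) between a mutant and Col-0 at 28 °C (circles) and 21 °C (squares), in roots and shoots. Points are limma estimates from 3 libraries per group, lines are 95% intervals, and open points have an adjusted p of 0.05 or more. In shoots labelled chl1-5 all 10 squares lie left of 0 and the circles lie to their right, and in hy5-215 roots the HSP70-4 square lies farthest left, at -0.74.

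Organ levels separated the plastid members from the others. In Col-0 at 21 °C CLPB3, HSP90.5 and cpHSC70-1 were lower in roots than in shoots, and the other 7 genes were higher in roots. CLPB3 had 5.77, 5.97 and 6.99 RPKM in roots, against 33.7, 33.8 and 34.4 RPKM in shoots (-2.27 ± 0.048, adjusted p = 1.33e-27), HSP90.5 differed by -1.79 and cpHSC70-1 by -1.44 on the log2 scale. HSP90.3 was higher in roots by 1.61, HSP90.2 by 1.56, HSP70-4 by 1.49, HSC70-3 by 1.36, HSC70-1 by 1.31, HSP90.7 by 1.27 and HSP101 by 0.87. Of all 18173 genes tested over both organs, 67.8% were higher in roots and 25.1% lower, so the counts of 7 higher and 3 lower are near these shares. The median was 1.29 over the 10 genes and 0.53 over all genes. Rescaling by the median of ratios moved that median by -0.53, and all 10 genes kept their direction and call under it, with HSP101 at 0.40 and CLPB3 at -2.85.

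The Col-0 response to 28 °C differed between roots and shoots for 8 of the 10 genes. It was more positive in roots for 5 (28.9% of all genes) and more negative for 3 (32.4%), with medians of 0.079 over the 10 genes and -0.014 over all genes. CLPB3 differed most (0.70 ± 0.067, adjusted p = 4.99e-10), followed by HSP90.5 (0.45 ± 0.041, adjusted p = 2.69e-10) and cpHSC70-1 (0.26, adjusted p = 5.07e-06), so the 3 plastid members responded more positively in roots. HSP70-4 (-0.61 ± 0.12, adjusted p = 0.000135), HSP90.7 (-0.32, adjusted p = 1.96e-06) and HSC70-1 (-0.19, adjusted p = 0.00661) responded less positively in roots. The HSC70-1 difference missed the threshold with rescaling (-0.13, adjusted p = 0.116). The differences of HSP101 (0.25, adjusted p = 0.0258) and HSP90.2 (0.17, adjusted p = 0.027) were lost when single Col-0 libraries were left out. For HSP101 these were root replicate 3 at 21 °C, root replicate 2 at 28 °C, shoot replicate 3 at 21 °C and shoot replicates 2 and 3 at 28 °C (0.18 to 0.23, adjusted p of 0.0568 to 0.107), and the call was also lost with 0.1 RPKM added (0.18, adjusted p = 0.18) and by voom (0.16, adjusted p = 0.309). For HSP90.2 they were root replicate 1 at 21 °C, root replicates 1 and 3 at 28 °C, shoot replicate 1 at 21 °C and shoot replicates 2 and 3 at 28 °C (0.12 to 0.16, adjusted p of 0.051 to 0.107), and the summed RPKM of HSP90.2, HSP90.3 and HSP90.4 differed by 0.060 (adjusted p = 0.445). HSP90.3 and HSC70-3 did not pass (95% intervals -0.15 to 0.13 and -0.15 to 0.14).

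Over the 12 groups the highest mean of HSP70-4, HSP101, HSC70-1 and HSP90.7 was in Col-0 roots kept at 28 °C, that of HSP90.2, HSP90.3 and HSC70-3 in those kept at 21 °C, and the lowest mean of all 7 was in shoots labelled chl1-5 at 21 °C. Among these 7, only HSP70-4 and HSC70-3 had a top group whose libraries were apart from the next group. The lowest group overlapped its neighbour for HSP90.2. CLPB3 was highest in Col-0 shoots at 21 °C (33.97 RPKM), and the 6 shoot groups did not overlap one another in its order, while neighbouring root groups overlapped. HSP90.5 and cpHSC70-1 had their highest mean in shoots labelled chl1-5 at 28 °C (135 and 146 RPKM) and their lowest in chl1-5 roots at 21 °C (33.8 and 45.4 RPKM). The lowest group overlapped hy5-215 roots at 21 °C for both genes. For cpHSC70-1 the top group overlapped Col-0 shoots at 28 °C. For HSP101 the 3 root groups at 28 °C came first and overlapped in their libraries. Together the 10 genes took 0.618% of all reads at 28 °C and 0.579% at 21 °C in Col-0 roots. In Col-0 shoots they took 0.368% at 28 °C and 0.334% at 21 °C, and in shoots labelled chl1-5 0.375% and 0.272%.

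Other chaperones and their partners were counted in Col-0 from lists of related genes. Of 15 genes listed as co-chaperones of HSP90 and HSP70, with the HSP101 partner HSA32 among them, 12 rose, 2 fell and 1 did not pass in roots. In shoots the counts were 12, 2 and 1 (of all genes 37% rose and 29.2% fell in roots, and 46.2% and 30.7% in shoots). The median log2 fold changes were 0.30 in roots and 0.24 in shoots. HSA32, a heat-induced protein that acts with HSP101 in keeping thermotolerance, had 23.3 ± 0.72 RPKM at 28 °C and 2.41 ± 0.0751 RPKM at 21 °C in roots (SD, n = 3 each), a rise of 2.83 on the log2 scale (adjusted p = 3.26e-13). ROF2, an FK506-binding protein that binds HSP90, rose by 2.55 in roots and 2.35 in shoots, HOP3, which links HSP70 to HSP90, by 1.82 and 2.02, and HSA32 by 1.84 in shoots. P23-1 (-0.24) and P23-2 (-0.12), p23 co-chaperones of HSP90, fell in roots, and P23-1 (-0.15) and HOP1 (-0.12) fell in shoots. Of 10 heat shock factor genes tested in roots, with the coactivator MBF1C among them, 4 rose and 6 did not pass, and of 9 in shoots 8 rose and 1 fell. MBF1C rose by 1.40 in roots and 2.22 in shoots, HSFB1 by 0.37 and 0.82, HSFA2 by 1.01 in roots and HSFA3 by 0.73 in shoots. HSFB2A fell in shoots (-0.38). The medians were 0.13 in roots and 0.22 in shoots, and the root count of rises is near the share of all genes (37%, against 46.2% for shoots).

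Among 12 other HSP70s tested, 4 rose, 2 fell and 6 did not pass in Col-0 roots, and 8, 3 and 1 in Col-0 shoots (medians 0.043 and 0.17). The count of rises in roots and that of falls in shoots are near the shares of all genes (37% and 30.7%). HSP70T-2 rose by 1.63 in roots and 1.61 in shoots, HSP70-5 by 0.50 and 0.98, and BIP1, an HSP70 of the ER, by 0.92 in shoots. HSP70-14 (-0.29) and mtHSC70-1 (-0.18), a mitochondrial HSP70, fell in roots. In shoots cpHSC70-2, the second plastid HSP70, fell, with 70.4 ± 1.20 RPKM at 28 °C and 109 ± 0.692 RPKM at 21 °C (SD, n = 3 each; -0.62, adjusted p = 1.62e-14), whereas its paralog cpHSC70-1 did not pass the test there. mtHSC70-1 (-0.53) and HSP70-15 (-0.23) also fell in shoots. Of 4 other HSP100s, CLPB4, the mitochondrial ClpB, rose in roots (0.66) and shoots (0.45), as did CLPC1 of plastids (0.42 and 0.24). CLPC2 fell in shoots (-0.74), and CLPD fell in roots (-0.11) and rose in shoots (0.19). The medians of the 4 were 0.20 in roots and 0.22 in shoots. Of the other HSP90s, HSP90.6 of mitochondria rose in both organs (0.34 and 0.16), and HSP90.4 fell in roots (-0.29). HSP70-18 and HSP90.1 were not analysed here, and BIP3 lay below the filter.

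Folding genes of the ER and of plastids were counted in each organ, and differences between the organs were not tested. Of 10 genes listed under ER folding, with the transcription factor BZIP60 among them, 5 rose, 3 fell and 2 did not pass in Col-0 roots. In Col-0 shoots 9 rose and 1 fell, and the medians were 0.070 in roots and 0.55 in shoots. Among all genes 37% rose and 29.2% fell in roots, and 46.2% rose and 30.7% fell in shoots, so the root counts of ER folding genes are near the background in falls. ERDJ3A, an ER J-domain protein, rose by 1.06 in shoots and 0.34 in roots, SDF2 by 0.95 and 0.26, and ERDJ3B by 0.73 and 0.17. BZIP60, a transcription factor of ER stress, fell in shoots (-0.096). CRT1B (-0.27), PDIL1-1 (-0.23) and P58IPK (-0.20) fell in roots. All 6 plastid folding genes tested in Col-0 roots rose (median 0.46), led by CGE1, a nucleotide exchange factor of plastid HSP70 (0.67), TIC40 (0.50) and CPN20 (0.47). The summed shoot markers stood higher in the same root libraries at 28 °C, and their part in this was not tested. In shoots 4 of 7 rose, 2 fell and 1 did not pass (median 0.15), near the shares of all genes (46.2% and 30.7%). HSP21, a small plastid heat shock protein, had 3.64, 4.44 and 5.17 RPKM in Col-0 shoots at 28 °C, against 0.0103, 0.0106 and 0.0109 RPKM at 21 °C (2.41 on the log2(RPKM + 1) scale, a value set largely by the added 1 RPKM), and lay below the filter in roots. CPN20 (0.17) and TIC40 (0.15) rose in shoots. The chaperonin subunits CPN60A1 (-0.39) and CPN60B1 (-0.39) fell there, in the direction of CLPB3.

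**Figure D4:**
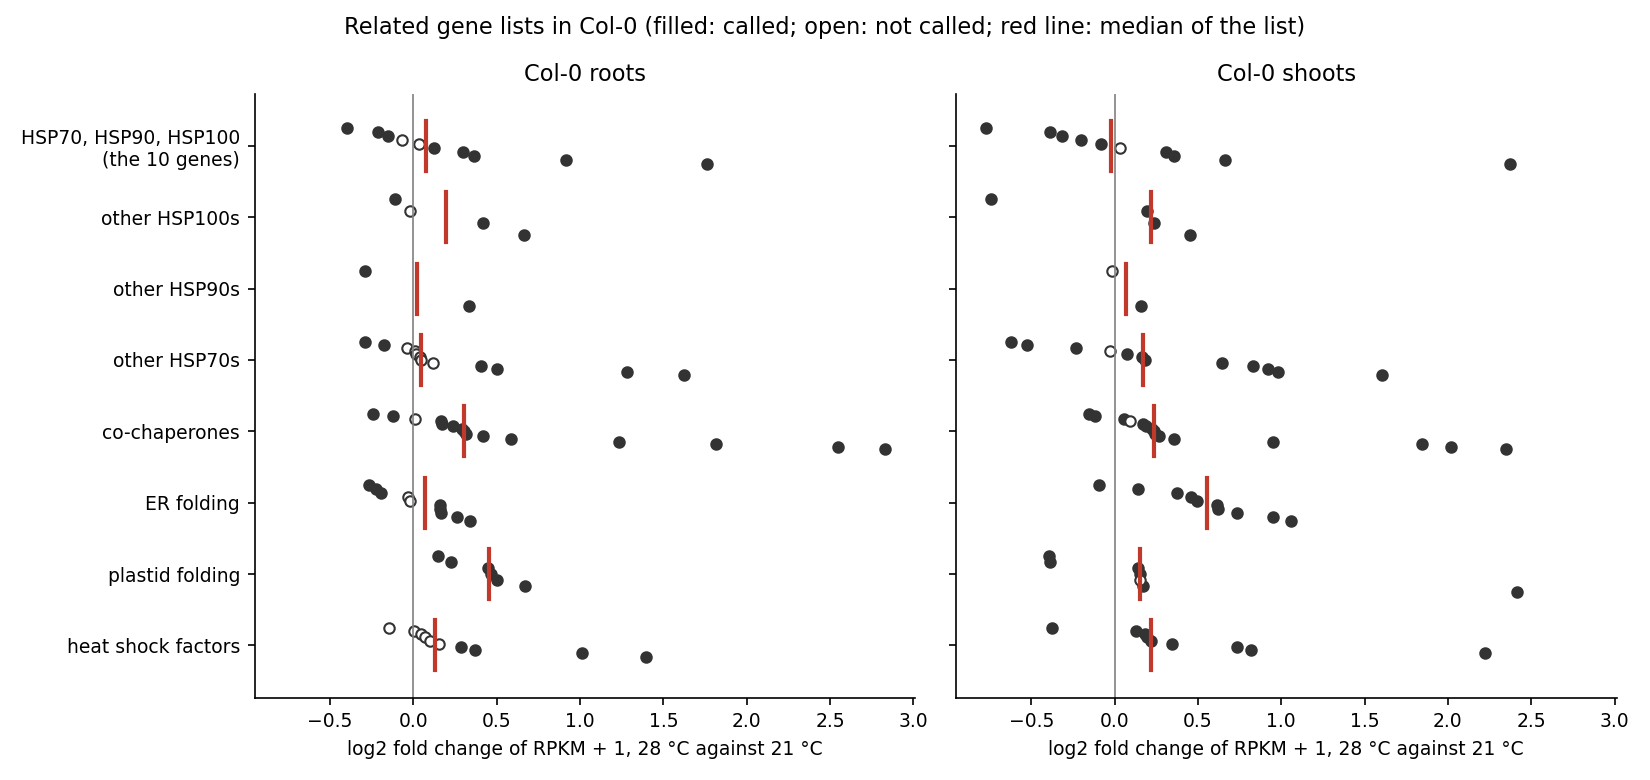
Log2 fold change of RPKM + 1 at 28 °C against 21 °C (x axis) in Col-0 roots (left) and shoots (right) for the 10 genes and 7 lists of related genes (y axis). Each point is a gene, filled where its adjusted p is under 0.05, and the red line is the median of the list. The median of ER folding genes is 0.55 in shoots and 0.070 in roots, and that of plastid folding genes is 0.46 in roots and 0.15 in shoots.

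As a description, the genes most like each of the 10 over the 12 group means (Pearson r of mean log2(RPKM + 1) among 8044 genes) came in part from the same families. All 12 points share the contrasts between organs and between temperatures. HSP90.2 and HSP90.3 were the nearest to each other (r = 0.998), and cpHSC70-1 had HSP90.5 as its second nearest (0.997). cpHSC70-1 was nearest to AT2G22360 (0.997), named DNA J protein A6 in RefSeq. HSC70-1 was nearest to HSP90.7 (0.994). HSP70-4 was nearest to MBF1C (0.976) and ROF2 (0.975), and HSP101 to AT4G31290 (0.988) and to CHC1, AT5G14170 (0.984). CLPB3 was nearest to the glutathione reductase GR (0.997) and the fatty acid desaturase FAD8 (0.996), HSC70-3 to the mitochondrial phosphate transporter PHT3;1 (0.992) and the proteasome subunit RPN10 (0.988), and HSP90.5 to BSM (0.997). HSP90.7 was nearest to DEX1 and AT5G40660 (0.996 each). Second to these came GCD1 for HSP90.2 (0.997), RBP47A for HSP90.3 (0.996), cpHSC70-1 for HSP90.5 (0.997) and AT3G51050 for HSC70-1 (0.993).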

How the data were processed

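RNA-seq libraries of Arabidopsis roots and shoots (36 libraries, 12 groups of 3) were sequenced on an Illumina NovaSeq. The authors aligned reads with STAR 2.7.0a to TAIR10 and deposited RPKM per gene, and edgeR 3.36.0 is named in the submitters' processing notes. The tool that counted reads, and how it treated reads that fit several genes, are not given in the sources used here. The deposited RPKM values were multiplied by the genomic span of each gene in TAIR10.1 and scaled to the depth of the library. This gave whole reads for 100% of values above 0 (tolerance 0.05 reads), so RPKM here counts introns in the length. By identifier 24528 of 24532 genes were matched, and 5 were given another whole-number length. The summed recovered reads gave depths of 51.8 to 89.3 M reads per library. Over pairs of replicates, the squared difference was 2.41 to 8.88 times that of read sampling in roots and 1.64 to 4.74 times in shoots.

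The unit being RPKM, limma 3.58.1 (R 4.3.3) was run on log2(RPKM + 1) values (eBayes with trend, Benjamini-Hochberg adjustment) in place of a count test. The filter on low values kept a gene whose RPKM averaged 1 or more in the 18 libraries of its organ (in all 36 for comparisons between organs), and the 6 groups of an organ shared 1 estimate of spread. A gene was called at an adjusted p under 0.05, and counted as a DEG when its absolute log2 fold change also exceeded 1. The labels number the replicates but do not say that equal numbers belong together, so no pairing was used. Same-numbered libraries deviated together in part of the pairs, as given at the end. The p-values set each difference against the spread between replicate libraries, taken over all groups in a fit.

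The 10 genes were given by identifier and described in every comparison. From each list of related genes, all tested members were counted and at most 3 per direction with the largest called change in Col-0 were named. For likeness, the 2 genes with the highest Pearson correlation over 12 group means were named, among genes of at least 10 RPKM. The members and lists were chosen with earlier results of these data known. Alternatives were 0.1 RPKM added, no filter, a stricter filter (5 RPKM), median-of-ratios rescaling, eBayes without trend, the replicate block, limma voom on the recovered reads, a fit on the compared groups only, sums of near-identical genes, any fold change, and leaving out each library. The fit was tested on simulated data. Python 3.11.15, pandas 2.3.3, numpy 2.4.6 and matplotlib 3.10.9 were used.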

Additional observations from a re-analysis of the deposited data

Results flagged for a closer look

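The response to 28 °C was tested as a difference from that of Col-0 in each organ, and between the organs of Col-0. It differed in 25 of these tests (limma, adjusted p under 0.05). None of the 10 genes passed in hy5-215 or chl1-5 roots, where 20.4% and 2.35% of all genes passed. The values below are differences of log2 fold changes.

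For hy5-215 shoots against Col-0 shoots, the difference was 0.39 for HSC70-3, 0.33 for CLPB3, 0.18 for HSP101, 0.18 for HSP90.2, 0.13 for HSP90.3, 0.12 for HSP90.5 and 0.098 for HSP90.7. Among all genes 27.4% responded more positively there. The HSP101, HSP90.3 and HSP90.7 calls were lost when single libraries were left out, and the HSP90.2 call with rescaling.

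For shoots labelled chl1-5 against Col-0 shoots, it was 0.62 for HSP90.5, 0.58 for HSC70-3, 0.55 for CLPB3, 0.33 for HSP90.2, 0.33 for HSP90.3, 0.29 for cpHSC70-1, 0.27 for HSP70-4, 0.21 for HSC70-1, 0.18 for HSP90.7 and 0.17 for HSP101. Here 30.5% of all genes responded more positively, and the HSP101 call was lost with rescaling or when single libraries were left out. Both shoot comparisons use the same Col-0 shoot libraries. NRT1.1 was expressed in the shoots labelled chl1-5, and the part of that in these values was not tested.

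For Col-0 roots against Col-0 shoots, it was 0.70 for CLPB3, 0.45 for HSP90.5, 0.26 for cpHSC70-1, 0.25 for HSP101, 0.17 for HSP90.2, -0.19 for HSC70-1, -0.32 for HSP90.7 and -0.61 for HSP70-4. Of all genes 28.9% responded more positively in roots and 32.4% more negatively. The HSP101 and HSP90.2 calls were lost when single libraries were left out, and the HSC70-1 call with rescaling.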

How the results depend on the processing

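Of 200 results of single genes (131 called), 142 kept their call under every alternative run and 58 did not, 37 of them when 1 library was left out. The count of DEGs was 1 in each comparison of temperature and became 2 with 0.1 RPKM added, and 2 by voom, in Col-0 roots, hy5-215 shoots and shoots labelled chl1-5, where HSP101 passed the limit too. At any fold change it was 8 in Col-0 roots, 6 in hy5-215 roots, 8 in chl1-5 roots, 9 in Col-0 shoots, 6 in hy5-215 shoots and 9 in shoots labelled chl1-5. The fit on the compared groups only called 0 of the 5 genes that were lower in chl1-5 roots at 28 °C. Rescaling by the median of ratios left 4 of 7 differences in response for hy5-215 shoots and 2 of 5 lower genes in hy5-215 shoots at 21 °C. The cause of these changes was not tested.

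HSC70-3 took the other sign when HSC70-1, HSC70-2 and HSC70-3 were summed, since HSC70-1 makes up most of the sum. The sum gave 0.10 in Col-0 roots, 0.093 in hy5-215 roots, 0.099 in chl1-5 roots and 0.26 in Col-0 shoots at 28 °C against 21 °C, -0.033 for the difference in response of hy5-215 shoots and -0.013 for hy5-215 against Col-0 shoots at 28 °C.

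With 1 library left out, the count of called genes ranged from 0 to 2 for the hy5-215 difference in response in roots, 5 to 8 and 2 to 6 for hy5-215 against Col-0 roots at 21 °C and 28 °C, 4 to 6 and 2 to 5 for chl1-5 against Col-0 roots at 21 °C and 28 °C, 4 to 7 for the hy5-215 difference in response in shoots, 3 to 6 and 5 to 7 for hy5-215 against Col-0 shoots at 21 °C and 28 °C, and 2 to 4 for shoots labelled chl1-5 against Col-0 at 28 °C. It ranged from 6 to 8 in Col-0 roots, 6 to 8 in chl1-5 roots and 6 to 8 for the difference in response between Col-0 organs.

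The deviations of same-numbered libraries correlated at -0.274 to 0.286 in roots and -0.262 to 0.479 in shoots. These libraries deviated together (correlation over 0.1) in 6 of 9 root pairs and 5 of 9 shoot pairs. All 3 pairs did so in hy5-215 roots, where the block changed no call of temperature, and in no other genotype and organ, so the numbers were not taken as pairs. With the replicate number as a block, 8 genes were called in Col-0 roots and 9 in Col-0 shoots, as without it, and 6 of 7 differences in response for hy5-215 shoots. The block ended 5 calls of single genes, with unchanged log2 values: HSP90.5 in hy5-215 against Col-0 roots at 28 °C (-0.095, limma adjusted p = 0.0518) and in chl1-5 against Col-0 roots at 21 °C (-0.11, 0.05), HSP90.7 in the hy5-215 difference in response in shoots (0.098, 0.051), and HSP90.2 in hy5-215 against Col-0 shoots at 21 °C (-0.095, 0.0609) and in shoots labelled chl1-5 against Col-0 at 28 °C (-0.099, 0.063).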
